A study of Mus musculus with 6 samples.

Results

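The insulin-like growth factor (IGF) system was followed across cells sorted from the mouse colon through 10 genes: the ligands Igf1 and Igf2, the receptors Igf1r and Igf2r, and the binding proteins Igfbp2 to Igfbp7. Its members were all probe sets of the deposited array table that name 1 of these genes and no other, which gave 28 of the 34945 probe sets with a single gene symbol, and 10 of 18193 genes. All samples came from mice of the strain Mapttm1(EGFP)Klt/J, which express EGFP from Mapt, the tau gene that is active in neurons. The mice of both groups were operated under pentobarbital (50 mg/kg), received 3 to 5 µL of fluorescent cholera toxin subunit B (25 mg/mL) in the celiac ganglion, and were killed 3 or 4 days later. The groups are 3 libraries labelled EGFP-positive, called colonic neurons in the labels, and 3 labelled EGFP-negative, called myenteric cells. Each replicate pooled cells of 2, 4 or 6 mice, and which replicate held how many, as well as age and sex, is not given in the sources used here.

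IGF1 and IGF2 are small secreted proteins that act through the receptor tyrosine kinase IGF1R, whose signal runs through IRS adaptor proteins to PI3-kinase and AKT. IGF2R has no kinase: it carries IGF2, and enzymes tagged with mannose 6-phosphate, to the lysosome. The binding proteins hold the ligands in tissue fluid and matrix, and proteases such as PAPP-A cut them and set the ligands free. In the gut wall IGF1 is made by mesenchymal cells and macrophages, among others.

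Values are the authors' log2 expression values, on which a step of 1 is a 2-fold change, and 3 values in a row stand for replicates 1 to 3. Since probe sets bind with different strength, levels were compared between libraries and never between genes. The background, read from the TrpnX control probe sets, was 1.00 to 1.48. The number of probe sets above 6 on this scale ran from 6182 in EGFP-negative replicate 1 to 7621, of 45101. As a check of the sort, Mapt read 1.43, 1.32 and 5.55 with the EGFP-positive label and 1.44, 1.64 and 1.38 with the EGFP-negative label, and the mean of 14 neuronal markers was 3.28, 3.19 and 6.40 against 3.39, 3.55 and 3.79. In Mapt and the neuronal markers, EGFP-positive replicates 1 and 2 therefore did not rise above the EGFP-negative range, against their label. Directions below refer to labels. Macrophage markers moved with the labels, at a mean of 6.06, 3.19 and 1.99 against 7.71, 7.91 and 6.31, and so did 9 lymphocyte markers, at 2.66, 1.31 and 1.46 against 3.68, 5.46 and 6.06, and 10 enteric glia markers, at 6.75, 6.50 and 8.63 against 4.63, 6.08 and 5.72. In such bulk samples, fewer cells of a type and less RNA per cell cannot be told apart.

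The members with the lowest and the highest difference between the labels were a ligand and its receptor, Igf1 and Igf1r, and their promoters are shown because these genes open the results. The sequences are the 250 bases before the annotated start, from RefSeq on build GRCm38.p6, both on the plus strand. Capitals mark the motifs CCAAT and GGGCGG in either direction, neither of which overlaps the other here.

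Igf1, chr10:87860861-87861110: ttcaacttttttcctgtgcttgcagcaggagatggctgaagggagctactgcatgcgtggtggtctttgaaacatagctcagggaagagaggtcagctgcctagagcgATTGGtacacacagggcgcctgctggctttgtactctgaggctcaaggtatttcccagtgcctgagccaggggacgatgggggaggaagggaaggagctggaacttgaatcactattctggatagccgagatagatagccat

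Igf1r, chr7:67952007-67952256: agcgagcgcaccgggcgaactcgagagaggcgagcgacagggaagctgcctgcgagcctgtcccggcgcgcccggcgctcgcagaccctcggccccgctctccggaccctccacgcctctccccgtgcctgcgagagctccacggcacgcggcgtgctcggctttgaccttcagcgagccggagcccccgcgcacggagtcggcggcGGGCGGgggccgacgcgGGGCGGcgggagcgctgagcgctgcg

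The Igf1 window held 5 CpG sites and 1 CCAAT box, a motif present in 33.8% of 32851 such windows. The Igf1r window held 42 CpG sites, more than 99.1% of windows, and 2 GGGCGG boxes, a motif present in 32.7%. Neither window held TATAAA on either strand, which 12.4% did. These matches describe the letters and say nothing of which factor binds.

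None of the 10 genes passed the test between the labels, and 0 of 18193 genes did (0%, limma with Benjamini-Hochberg adjustment). At an unadjusted p under 0.05 the counts were 0 of 10 members and 893 of all genes (4.91%). In 0 of 10 members did the 3 libraries of one label lie wholly above the 3 of the other, a pattern that 9.11% of all genes showed (3.07% higher and 6.04% lower with the EGFP-positive label). Means were lower in the EGFP-positive group for 7 members and higher for 3, with a median difference of -0.12 against -0.017 over all genes, where 46.4% were higher. This split depended on scaling. With arrays centred on ribosomal protein genes, which moved the median of all genes to 0.39, 8 of 10 members were higher. So were 91.3% of all genes. The plot of the members by library shows the groups overlapping in each of them.

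**Figure D1:**
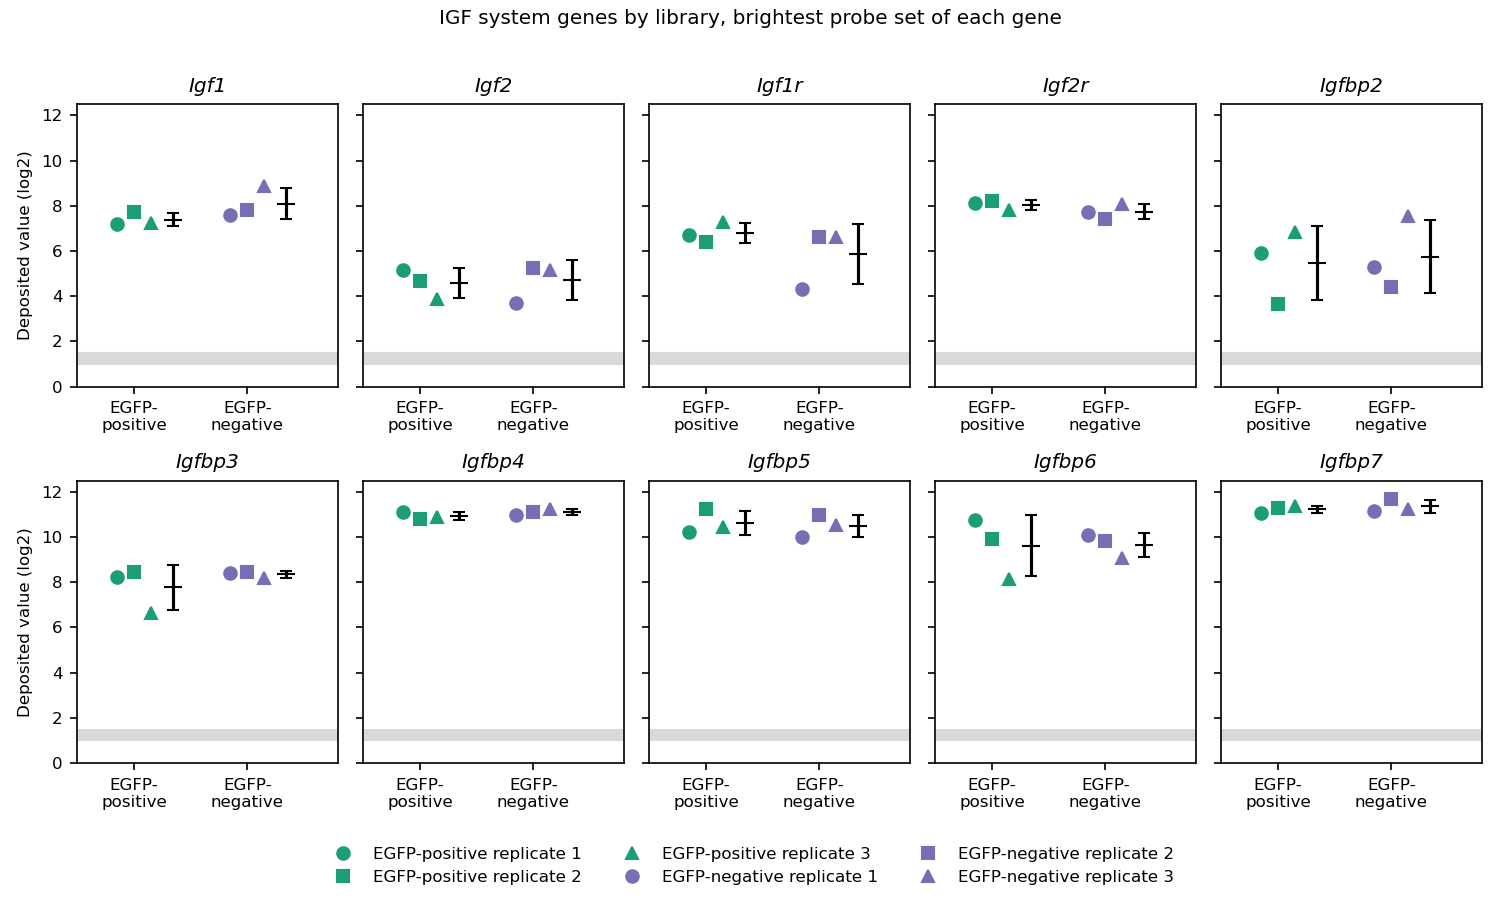
Deposited log2 value (vertical axis) of the brightest probe set of each IGF system gene in the 6 libraries, by EGFP label; marker shapes give the replicate number, black bars the mean ± SD of 3 libraries, and the grey band the TrpnX background of 1.00 to 1.48. The groups overlap in all 10 genes, and single libraries stand low in Igf1r (4.31) and Igfbp3 (6.63).

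Among the ligands, Igf1 was lower on average in the libraries labelled EGFP-positive on all 4 of its probe sets. The brightest, 1437401_at, read 7.20, 7.70 and 7.24 against 7.57, 7.83 and 8.89, a difference of -0.71 (SE 0.38, 95% interval -1.66 to 0.23, limma adjusted p = 1.00). Its highest value lay in EGFP-negative replicate 3 and the groups overlapped at EGFP-positive replicate 2. Without EGFP-negative replicate 3 the difference was -0.32, and it was negative under each alternative run, from -0.98 to -0.30. Some alternatives, such as the variance model and the replicate block, could not change it. All 3 same-numbered pairs were lower in the EGFP-positive library, by -0.37, -0.12 and -1.65.

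The other Igf1 probe sets were tested in a fit over all 34945 probe sets with 1 symbol. Probe set 1452014_a_at was the 1 for Igf1 whose groups did not overlap, at 4.53, 4.71 and 3.90 against 5.54, 5.73 and 5.95. It differed by -1.36 (SE 0.25) and did not pass (limma adjusted p = 0.744), and 4.96% of all these probe sets separated in the same direction. Probe set 1434413_at read 5.77, 7.11 and 6.42 against 6.56, 7.87 and 8.02, and 1419519_at read 5.58, 5.83 and 5.08 against 5.58, 6.39 and 6.52, so both overlapped. Of 12 macrophage markers 7 had groups that did not overlap, all lower with the EGFP-positive label, and so had 7 of 9 lymphocyte markers. The complement gene C1qc of the macrophage list read 6.55, 1.27 and 0.48 against 8.23, 8.39 and 6.09, so its groups overlapped. Its value in EGFP-positive replicate 3 lay below the background. The mean of 12 fibroblast markers was 9.98, 10.32 and 9.48 against 9.81, 10.68 and 10.54. In the means of the fibroblast, interstitial cell of Cajal and blood endothelium lists, 12 of the 15 possible pairs of libraries stood in the same order as in Igf1. For the lymphocyte list 11 pairs did, and for the macrophage list 10. The part of these cell types in the Igf1 values was not tested.

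Igf2, the growth factor of fetal tissue that is expressed from the paternal allele, was dim. Probe set 1448152_at read 5.16, 4.69 and 3.89 against 3.68, 5.26 and 5.15, with the lowest values in EGFP-positive replicate 3 and EGFP-negative replicate 1. The difference was -0.12 (SE 0.54, 95% interval -1.47 to 1.23, limma adjusted p = 1.00), and its sign turned with ribosome centring (0.29). The second probe set, 1415931_at, stayed between 1.35 and 1.62, close to the background, where a difference carries no weight.

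The receptor Igf1r was higher on average in the EGFP-positive group, and 1 library set the size of the difference. Probe set 1452982_at read 6.69, 6.40 and 7.26 against 4.31, 6.60 and 6.63, a difference of 0.94 (SE 0.69, 95% interval -0.79 to 2.66, limma adjusted p = 1.00). EGFP-negative replicate 1 stood apart below the other 5, and EGFP-positive replicate 3 was highest. Without EGFP-negative replicate 1, which also had the fewest probe sets above 6, the difference was 0.17. The second probe set, 1428967_at, gave the same picture at 6.34, 6.35 and 7.04 against 5.06, 6.30 and 6.27. Its groups did not overlap, but the gap between the nearest libraries was small beside the spread, and 4.90% of probe sets separated in this direction. Another, 1426565_at, read 4.24, 3.61 and 4.46 against 3.45, 3.13 and 3.93, with its lowest value in EGFP-negative replicate 2. Of the 2 dimmest, 1446303_at separated the groups (1.70, 1.67 and 2.14 against 1.45, 1.42 and 1.20) but lay at or near background in the EGFP-negative libraries.

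Igf2r, the clearance and sorting receptor, varied little. Probe set 1424112_at read 8.11, 8.22 and 7.80 against 7.70, 7.41 and 8.08, a difference of 0.31 (SE 0.22, 95% interval -0.23 to 0.86, limma adjusted p = 1.00). The groups overlapped because EGFP-negative replicate 3 exceeded EGFP-positive replicate 3, and without EGFP-negative replicate 2 the difference was 0.15. The second probe set, 1424111_at, read 6.90, 7.13 and 6.67 against 6.98, 6.61 and 7.52, and its mean difference had the opposite sign (-0.14). No direction for Igf2r can therefore be read from both probe sets together.

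**Figure D2:**
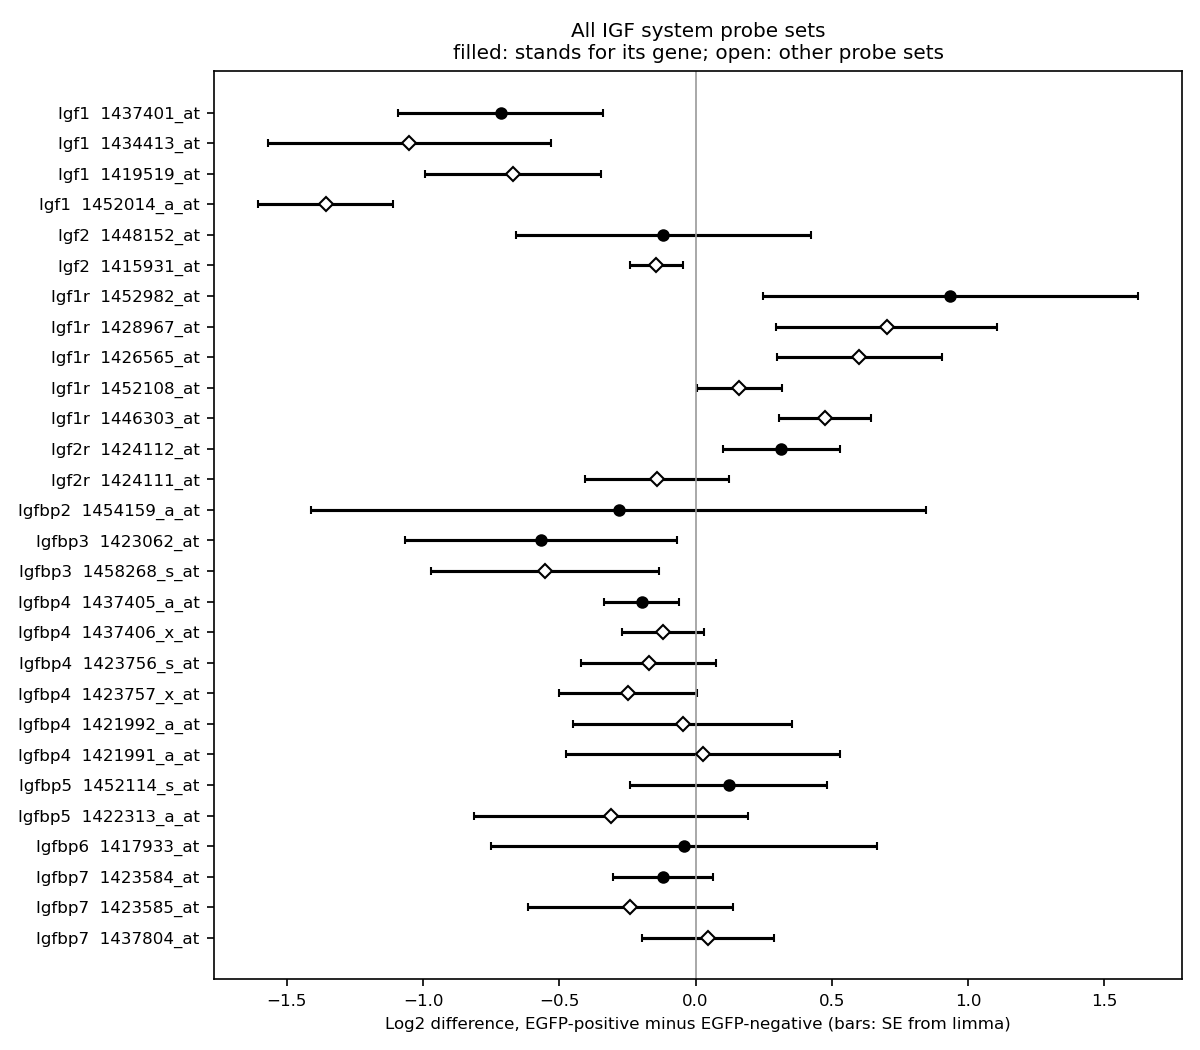
Log2 difference, EGFP-positive minus EGFP-negative, of all 28 probe sets (points) with the SE from limma (bars); filled points are the probe sets that stand for their gene. The 4 Igf1 probe sets lie left of 0, the 5 Igf1r probe sets right of 0, and 4 genes (Igf2r, Igfbp4, Igfbp5 and Igfbp7) have probe sets on both sides. For Igfbp4 and Igfbp7 the only probe set right of 0 is dim, at 0.027 (SE 0.50) and 0.046 (SE 0.24).

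Among the binding proteins, the brightest probe sets of Igfbp4, Igfbp5 and Igfbp7 lay far above the TrpnX background in all 6 libraries. Igfbp4, which restrains IGF1 until it is cut by PAPP-A, read 11.12, 10.78 and 10.89 against 11.00, 11.12 and 11.26 on probe set 1437405_a_at. The whole range of this probe set was 0.48, and the difference was -0.20 (SE 0.14, 95% interval -0.56 to 0.16, limma adjusted p = 1.00). Ranges of the other Igfbp4 probe sets ran from 0.38 (1437406_x_at) over 1.21 (1421992_a_at) to 1.72 in the dim 1421991_a_at. Igfbp7, a secreted relative that binds the ligands weakly, read 11.06, 11.27 and 11.37 against 11.15, 11.68 and 11.23, with a difference of -0.12 (SE 0.19, 95% interval -0.59 to 0.35, limma adjusted p = 1.00). Its probe set 1423585_at varied more, over a range of 1.29, with a difference of -0.24. For both genes the groups overlapped, and the sign turned with ribosome centring (0.21 and 0.29) and with a second quantile normalisation (0.043 and 0.14).

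Igfbp5, which is stored in the extracellular matrix, read 10.20, 11.22 and 10.46 against 10.02, 10.99 and 10.51 on probe set 1452114_s_at. Replicate 2 was highest and replicate 1 lowest under both labels, and libraries of the same number differed by at most 0.23. The difference between the labels was 0.12 (SE 0.37, 95% interval -0.79 to 1.03, limma adjusted p = 1.00). The second probe set, 1422313_a_at, was dim, between 1.66 and 3.42, and gave -0.31. Igfbp5 and Igfbp2 are adjacent protein-coding genes in RefSeq. Igfbp2 varied over 3.89 and Igfbp5 over 1.21, on probe sets of different brightness, so no difference in regulation can be read from these ranges.

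Igfbp2, a binding protein abundant in growing tissues, had the widest range of the members. Its values were 5.90, 3.66 and 6.84 against 5.31, 4.39 and 7.55. Under both labels replicate 3 was highest and replicate 2 lowest, and libraries of the same number differed by 0.59, -0.72 and -0.71, less than any pair of libraries of different number. The label difference was -0.28 (SE 1.13, 95% interval -3.10 to 2.54, limma adjusted p = 1.00), and its sign turned with ribosome centring (0.13). The profile nearest to that of Igfbp2 among 6091 genes above a log2 value of 6 in some library was that of Des, the muscle intermediate filament desmin, at a root mean square difference of 0.388 over 6 libraries after centring. Nkd1, an inhibitor of Wnt signalling, came next at 0.413. The mean of 10 smooth muscle markers, Des among them, was 8.70, 8.28 and 10.23 against 9.07, 8.46 and 10.49, and 14 of the 15 possible pairs of libraries stood in the same order as in Igfbp2.

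Igfbp6, which prefers IGF2 as its ligand, read 10.77, 9.93 and 8.15 against 10.09, 9.83 and 9.06. Replicate 1 was highest and replicate 3 lowest under both labels, whereas replicate 3 was highest for Igfbp2. The label difference was -0.043 (SE 0.71, 95% interval -1.82 to 1.73, limma adjusted p = 1.00). Leaving out EGFP-positive replicate 3 gave 0.69. The sign turned with ribosome centring (0.37) and a second quantile normalisation (0.064). Among the nearest profiles was that of Nectin2, a cell adhesion molecule, at a root mean square difference of 0.181. The mean of 8 mesothelium markers was 9.74, 9.19 and 7.38 against 9.44, 8.74 and 7.64, and all 15 pairs of libraries stood in the same order as in Igfbp6. For epithelium markers 13 pairs did.

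Igf1r also had a range of at least 2. Its nearest profiles were those of the zinc finger gene Zfp275 (0.107) and of Ankrd50 (0.136), an ankyrin repeat gene. The enteric glia markers ordered 12 of the 15 pairs as Igf1r did, both being lowest in EGFP-negative replicate 1 and highest in EGFP-positive replicate 3. Neuronal markers ordered 11 pairs alike and smooth muscle markers 10. The mesothelium, smooth muscle and enteric glia lists were each the highest of 11 cell type lists for Igfbp6, Igfbp2 and Igf1r in turn. They were picked after the values were seen, and libraries of 1 number share their order in many genes. The part of these cell types in the 3 genes was not tested.

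**Figure D3:**
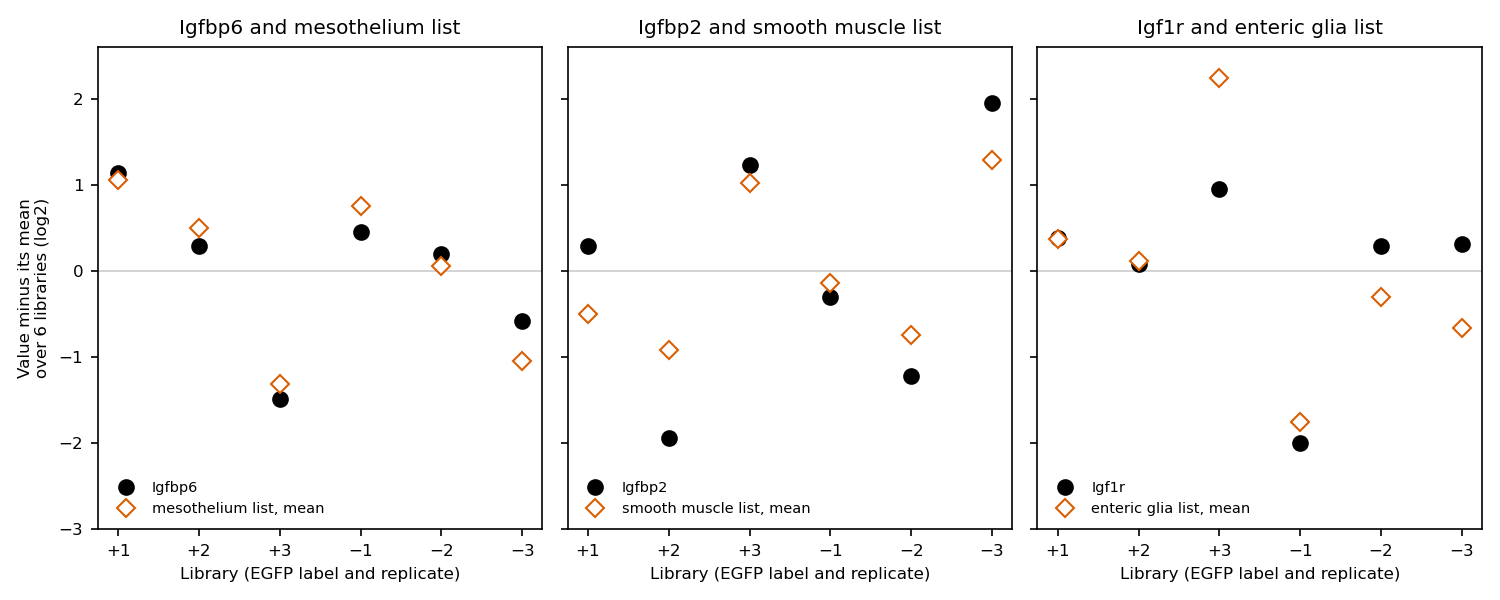
Log2 value minus its own mean over the 6 libraries (vertical axis) for Igfbp6, Igfbp2 and Igf1r (black circles) and for the mean of a cell type marker list (orange diamonds); + and − give the EGFP label and the digit the replicate number. Igfbp6 and the mesothelium list rank the libraries alike in 15 of 15 pairs, Igfbp2 and the smooth muscle list in 14, and Igf1r and the enteric glia list in 12.

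Igfbp3, the main carrier of IGFs in blood, was level in 5 libraries and low in 1. It read 8.25, 8.46 and 6.63 against 8.40, 8.46 and 8.18 on probe set 1423062_at, so that EGFP-positive replicate 3, the library with the highest Mapt value, stood apart. The second probe set, 1458268_s_at, gave the same pattern at 6.22, 6.20 and 4.78 against 6.29, 6.44 and 6.14. The difference was -0.57 (SE 0.50, 95% interval -1.82 to 0.69, limma adjusted p = 1.00). Leaving out EGFP-positive replicate 3 gave 0.0067. EGFP-positive replicate 3 alone against the 3 EGFP-negative libraries gave -1.71 (limma adjusted p = 0.173), with the spread of the lone library taken from the others. Markers of blood endothelium were also lowest in that library, at a mean of 6.10, 7.13 and 5.38 against 6.61, 6.77 and 6.87, as were those of lymphatic endothelium, at 7.79, 8.87 and 5.38 against 7.60, 8.35 and 6.24. The means of the fibroblast, mesothelium, epithelium and macrophage lists were lowest in the same library too (9.48, 7.38, 4.47 and 1.99). The part of these cell types in the Igfbp3 values was not tested.

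Around the members, 43 of 49 listed pathway genes were measured, and 0 passed in either direction (limma). At an unadjusted p under 0.05, 3 were higher and 0 lower, beside 1.48% and 3.43% of all genes. Groups did not overlap in 5, all higher with the EGFP-positive label, beside 3.07% of all genes. The 17 measured adaptors and PI3K-AKT genes had a median difference of 0.30, with 14 higher and 3 lower. Without EGFP-negative replicate 1, 12 were higher, and without EGFP-positive replicate 3, 14 were. Splits in this and the other pathway lists depend on scaling. With ribosome centring 91.3% of all genes were higher. So were 17 of 17 adaptor and PI3K-AKT genes, 6 of 8 proteases and inhibitors, and 7 of 7 other ligands and receptors. The same held for 2 of 3 genes of the Igf2 locus and mRNA-binding list and 8 of 8 lysosomal sorting genes.

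The highest difference in the adaptor and PI3K-AKT list was that of Grb14, an adaptor that inhibits the insulin receptor (1.30, SE 0.78). It read 6.57, 6.23 and 8.34 against 4.54, 5.97 and 6.74. The lowest was that of the kinase Akt1 (-0.22, SE 0.14). The 3 genes of the list whose groups did not overlap were named after their values were seen. Irs2, a direct substrate of the IGF1 receptor, read 5.13, 4.63 and 4.89 against 3.74, 4.40 and 4.19, a difference of 0.78 (SE 0.23, limma adjusted p = 0.986). Gab1, a docking protein that binds PI3-kinase, read 7.64, 7.72 and 8.85 against 7.06, 7.12 and 7.08, a difference of 0.99 (SE 0.34, limma adjusted p = 0.986). Foxo1, a transcription factor that AKT keeps out of the nucleus, read 7.84, 7.50 and 8.62 against 7.05, 7.36 and 7.50. In Gab1 and Foxo1 the highest value lay in EGFP-positive replicate 3, and in all 3 genes the lowest lay in EGFP-negative replicate 1.

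Among proteases of binding proteins and their inhibitors, 3 of 8 were higher and 5 lower, with a median of -0.090. Pappa, which encodes the protease PAPP-A that cuts IGFBP4, read 4.67, 4.69 and 5.15 against 3.68, 3.89 and 4.09. All 3 EGFP-positive libraries lay above all 3 EGFP-negative ones, a difference of 0.95 (SE 0.19), which did not pass over all genes (limma adjusted p = 0.951). The lowest difference was that of Stc2, a stanniocalcin that inhibits PAPP-A, at 2.75, 4.13 and 2.00 against 2.41, 4.49 and 3.41 (-0.48, SE 0.74). Replicate 2 was highest under both labels, while replicates 1 and 3 stood in opposite order.

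Of 7 other ligand and receptor genes, 4 were higher and 3 lower (median 0.0080). The highest, Igfbp1 (0.16), and the lowest, Igfbpl1 (-0.27), were near background in most libraries, and so Igfbp1 gives no readable difference although its groups did not overlap. Of the Igf2 locus and mRNA-binding list 3 of 5 genes were measured. Plagl1, an imprinted zinc finger gene, was lowest at 8.19, 8.42 and 8.31 against 8.34, 8.89 and 9.20 (-0.51, SE 0.24), and Igf2bp1, which binds Igf2 mRNA, was highest (0.14) at values of 1.29 to 2.03. Of 8 genes of lysosomal sorting 3 were higher and 5 lower (median -0.080), between Gga1, a sorting adaptor (0.23), and Nagpa, the uncovering enzyme of the mannose 6-phosphate tag (-0.33).

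**Figure D4:**
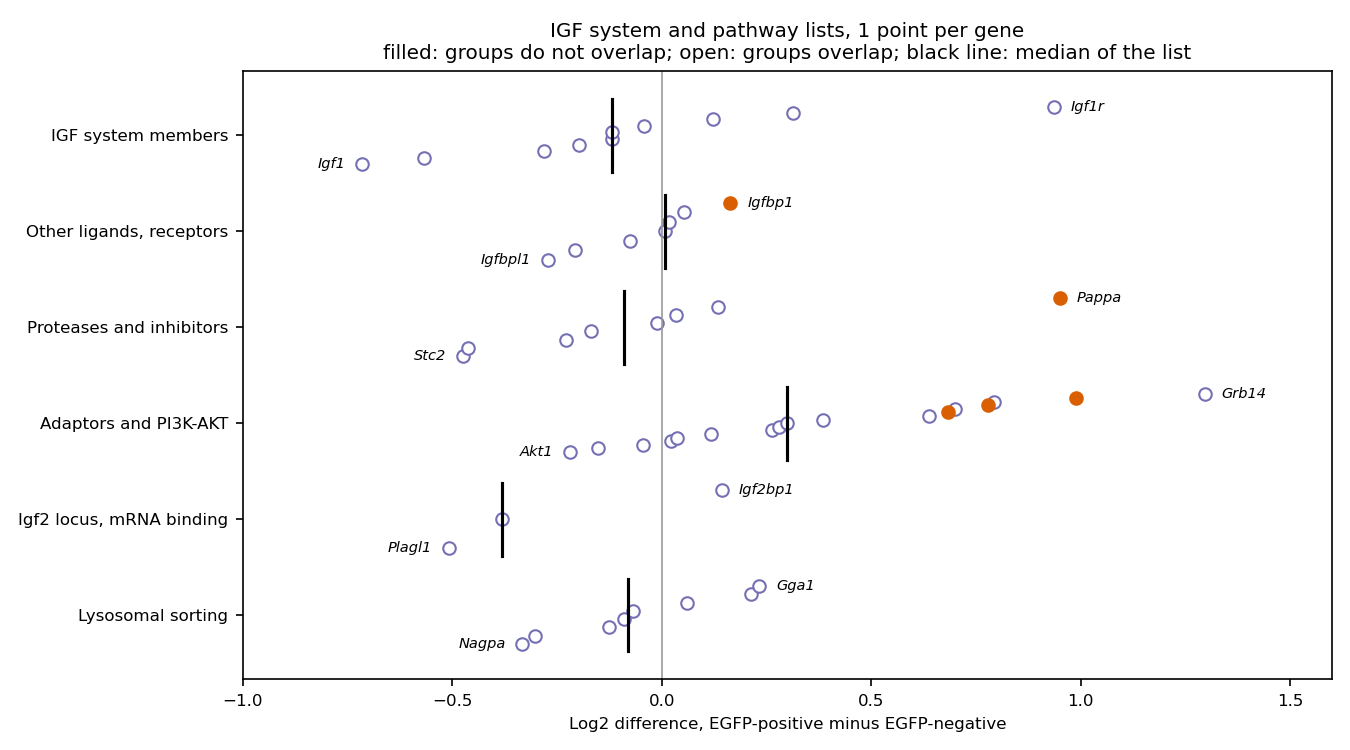
Log2 difference, EGFP-positive minus EGFP-negative, of each member and each measured pathway gene (1 point per gene), by list; filled points are genes whose groups do not overlap and black lines list medians. The adaptor and PI3K-AKT list has its median at 0.30 and the members at -0.12, and the outermost genes of each list are named.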

How the data were processed

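Total RNA of 6 sorted samples (about 50 ng each) was profiled on 1-colour Affymetrix mouse arrays. The authors deposited log2 values, obtained by RMA according to the submitters' processing notes, without version or settings. The columns had medians of 1.91 to 1.99, a minimum of 0.048 and upper quartiles of 4.08 to 4.86. Quantile-normalised RMA rarely looks like this, so dim values were given little weight. No depth applies, and the number of arrays limits precision.

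Symbols came from the platform annotation (34945 probe sets with 1, 932 with several, 9160 without), and a match to RefSeq led to 0 updates. Only those with 1 symbol were tested, without the 64 controls. The brightest probe set over the 6 arrays stood for each gene, giving 18193 genes. Some listed pathway and marker genes were not analysed here. The test was limma (version 3.58.1, R version 4.3.3) with lmFit and default eBayes, two-sided, and Benjamini-Hochberg adjustment over all genes at 0.05. The 3 against 3 samples are called biological replicates in the labels, and p-values measure the spread between these pools. The step was tested on simulated data.

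Members, lists and tests were chosen with earlier results of these data known. The named genes were all members, the highest and lowest gene of each pathway list, and for members with a range of at least 2 the 2 nearest profiles, of which 1 is not reported here. Genes outside this rule are named as chosen after their values were seen, or as markers beside a result.

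Replicate numbers are shared by both groups without a stated meaning. Deviations from the group means correlated over genes in all 3 same-numbered pairs (r = 0.364, 0.325 and 0.415). Same-numbered samples were therefore also compared as pairs, on the data and not the labels. The main fit took no pairing, so its SEs and intervals are unpaired. Alternatives covered scaling, background, probe set choice, variance model, array weights, a replicate block and libraries left out. Promoter windows and motifs were read with Python 3.11.15 and pandas 2.3.3 from RefSeq sequences (10 of 10 members matched, with 14 windows), and figures drawn with matplotlib 3.10.9.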

Additional observations from a re-analysis of the deposited data

How the results depend on the processing

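No member passed under any alternative run (limma adjusted p at least 0.173), while the unadjusted count of members was at most 2. Igf1, Igf1r and Igf2r kept their direction in all 18 alternatives, though not their size. Igf2r ran from 0.067 with EGFP-positive replicate 3 alone and 0.087 with the mean of all probe sets to 0.72 with ribosome centring, and Igf1r from 0.17 without EGFP-negative replicate 1 and 0.23 with array weights to 1.41 with EGFP-positive replicate 3 alone. Centring on the ribosome list turned Igf2 (0.29), Igfbp2 (0.13), Igfbp4 (0.21), Igfbp6 (0.37) and Igfbp7 (0.29). That setting shifts every gene alike by construction. A second quantile normalisation turned Igfbp4 (0.043), Igfbp6 (0.064) and Igfbp7 (0.14), array weights Igfbp6 (0.19), and Igfbp5 turned with the mean of all probe sets (-0.094) and without _s_at and _x_at probe sets (-0.31). EGFP-positive replicate 3 alone against 3 libraries turned Igfbp2 (1.09), Igfbp5 (-0.046) and Igfbp7 (0.020), and the cause of these turns was not tested. With each library left out in turn, differences ran from -0.63 to 0.23 for Igf2, -0.97 to 0.62 for Igfbp2, -0.91 to 0.0067 for Igfbp3, -0.29 to -0.12 for Igfbp4, 0.15 to 0.49 for Igf2r, -0.18 to 0.36 for Igfbp5, -0.62 to 0.69 for Igfbp6 and -0.22 to 0.045 for Igfbp7. The sign turned without EGFP-positive replicate 2 (Igfbp2 0.62, Igfbp5 -0.18) or 3 (Igf2 0.23, Igfbp3 0.0067, Igfbp6 0.69), and without EGFP-negative replicate 1 (Igfbp5 -0.12, Igfbp6 0.17), 2 (Igf2 0.16, Igfbp6 0.044, Igfbp7 0.045) or 3 (Igf2 0.11, Igfbp2 0.62).

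Members whose groups did not overlap numbered 1 with ribosome centring (Igf2r), beside 35.3% of all genes. They numbered 5 with EGFP-positive replicate 3 alone (Igf1, Igf1r, Igfbp3, Igfbp4 and Igfbp6), beside 52.4%. With each library left out they numbered 0 to 2, beside 15.5% to 21.9%. Counting any probe set gave 3 (Igf1, Igf1r and, near background, Igf2), with no such count over all genes. That number cannot be set against the 9.11% from 1 probe set per gene, because several probe sets give a gene more chances to separate. Genes called over the whole array numbered 2 when values were raised to the TrpnX background (Mefv and Vac14, Mefv having no spread left in a group because of that floor) and 0 to 2 with each library left out, the 2 being Ccr2 and Fermt3 without EGFP-positive replicate 1. With the replicate block 0 genes and 0 members were called, with 1345 genes at an unadjusted p under 0.05 against 893, and it changed no other call. The block lowered the SE of Igfbp2 from 1.13 to 0.33, of Igfbp5 from 0.37 to 0.13 and of Igfbp6 from 0.71 to 0.35. It raised the SE only for Igf2 (0.54 to 0.60), Igf2r (0.22 to 0.26) and Igfbp4 (0.14 to 0.16). The pathway counts without single libraries were added after seeing the data. In the protease list the number higher went from 3 to 1 without EGFP-negative replicate 1 and to 5 without EGFP-positive replicate 3.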
